A study of Mus musculus with 6 samples.

Results

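The liver turns cholesterol into bile acids, and the enzymes of that pathway were followed in mouse liver tumours and in the liver tissue beside them. The set was every probe of the array whose annotated gene is Cyp7a1, Cyp8b1, Cyp27a1, Cyp7b1, Hsd3b7, Akr1d1, Amacr, Acox2, Slc27a5 or Baat. All 10 genes were found, with 14 probes, among the 19057 genes named on the array. The rule uses no measured value.

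The samples were 3 liver tumours, from animals 1293, 1309 and 1316, and the 3 pieces of adjacent liver dissected with them. All animals were C57BL/6J mice, and all had received 3e+10 particles of AAV-Rian-CMV, an adeno-associated virus vector named for the locus Rian, by vein on day 1 after birth. Tissue was taken at the age of 6 months, so the adjacent liver had been exposed to the same vector as the tumours, and no uninjected liver was analysed here. Each tumour is a single nodule, and the labels give no sex. For the tumour titled 1316 another field of the labels carries a different animal number, and the title was followed. Biotin-labelled RNA was read on Illumina bead arrays, where the brightness of a probe stands for the abundance of its transcript, so levels of different genes are not compared.

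Bile acid synthesis begins in the classical pathway with Cyp7a1, whose step sets its rate, and in an alternative pathway with Cyp27a1, which oxidises the sterol side chain in mitochondria. Hsd3b7 and Akr1d1 then change the ring, Cyp8b1 adds the hydroxyl group that makes cholic acid, the side chain is shortened in peroxisomes with Amacr and Acox2, and Slc27a5 and Baat couple the product to an amino acid, in mice mainly taurine. Bile acids return to the liver and hold their own synthesis down through the receptor FXR, encoded by Nr1h4, and the repressor SHP, encoded by Nr0b2. HNF4 alpha and LRH-1, encoded by Hnf4a and Nr5a2, are known to bind the Cyp7a1 and Cyp8b1 promoters.

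None of the 10 genes passed the unblocked test in either direction by its reported probe, although most read lower in the tumours. Cyp7a1 and Cyp27a1 passed as lower once each tumour was set against the adjacent liver paired with it by title. By limma, where p-values were adjusted across the 45281 probes by the Benjamini-Hochberg method and called under 0.05, 0 of 10 were higher and 0 of 10 were lower, while 3.64% of all genes were called higher and 1.56% lower. At an unadjusted p under 0.05, 5 of 10 were lower (Cyp8b1, Cyp27a1, Baat, Slc27a5 and Hsd3b7) and 0 were higher. That share stood beside 9.27% of all genes, and beside 18% of the 7117 genes above background on all 6 arrays, where background means an array's modal signal plus 3 SDs. The median difference of the 10 members was −0.43 on the log2 scale, against −0.01 for all genes. By animal, the members' median was −0.38 in 1293, −0.12 in 1309 and −0.62 in 1316.

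With the animal entered as a block, which sets each tumour against its own adjacent liver, 2 of 10 members passed as lower, Cyp7a1 and Cyp27a1, where 3.11% of all genes and 6.96% of the genes above background on all arrays did. For animal 1316 the block relies on the title, while another label field gives that tumour a different animal number. That pair had the largest difference for both genes (−1.09 and −2.83). The main count of 0 also changed with single arrays. It was 2 without tumour 1309 (Cyp27a1 and Slc27a5), 1 without tumour 1316 (Cyp27a1) and 2 without both arrays of animal 1309 (Cyp27a1 and Hsd3b7). The 3 tumours all read below the 3 adjacent livers for 5 members, against 11% of all genes and 17.9% of those above background. A lower reading in the tumour than in its own adjacent liver in every animal was seen for 7 members, against 21.6% of all genes. These 7 include Akr1d1, which was above background on 1 array, and among genes above background on all arrays the share was 32.4%. In this bulk RNA, fewer cells of a type and less RNA per cell cannot be told apart.

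**Figure D1:**
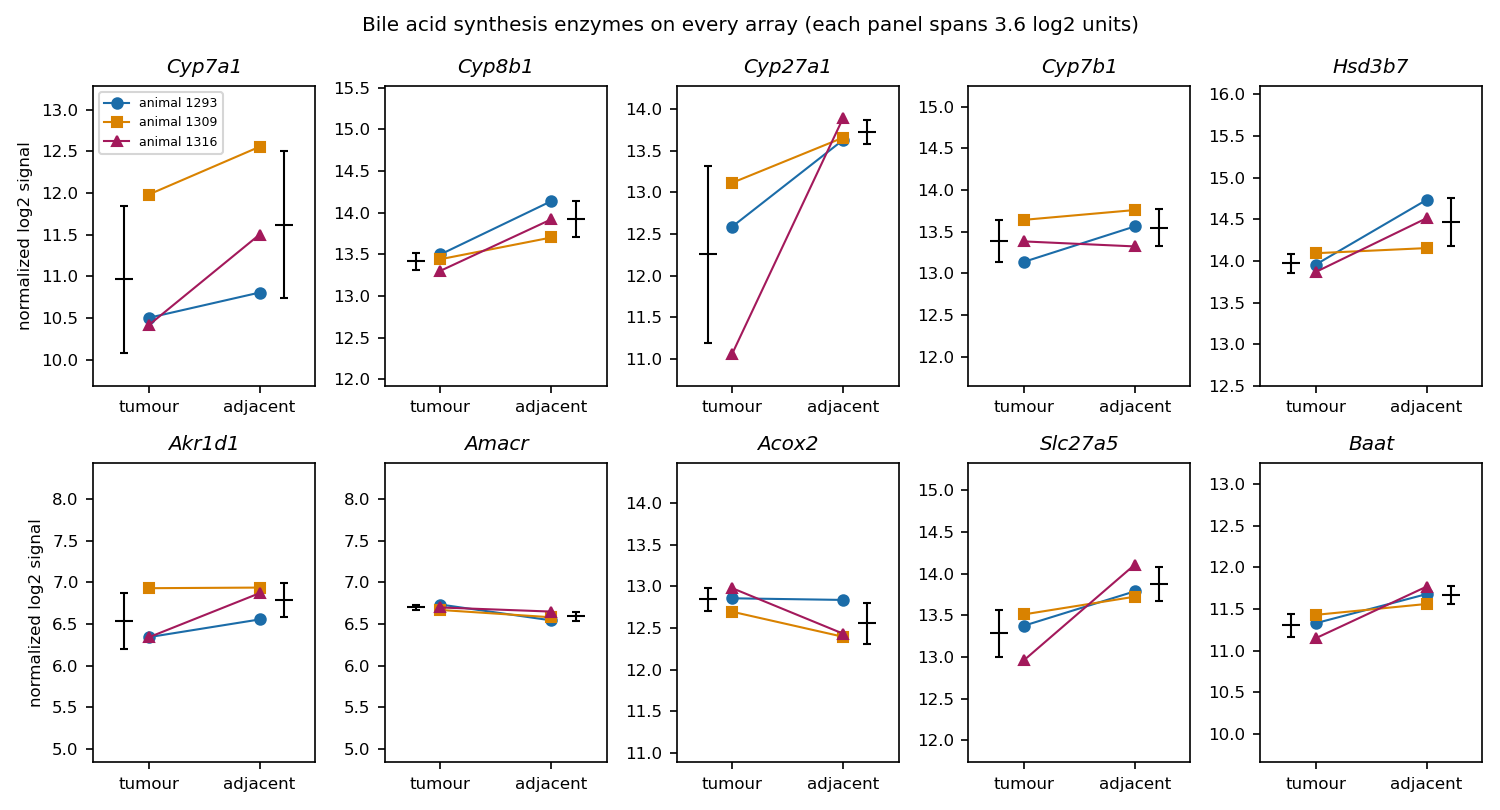
Normalized log2 signal of the reported probe of each member on every array, tumours left and adjacent livers right, with lines joining the samples of an animal and black bars giving the mean and SD of 3 arrays. Tumour and adjacent values do not overlap for Cyp8b1, Cyp27a1, Hsd3b7, Slc27a5 and Baat, which were lower in tumours, or for Amacr, which lay below background throughout; Cyp7a1 spread over 1.75 log2 units among adjacent livers.

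The promoters of Cyp8b1, Cyp27a1 and Hsd3b7 are printed because these 3 genes read lower in every tumour than in any adjacent liver and had an entry in the RefSeq promoter table (GRCm38.p6), which held 5 of the 10 members. Each line gives the 250 bases before the annotated start of transcription, on the strand of the gene, 5′ to 3′. Capitals mark motif matches found by search. The region of Cyp8b1 is chr9:121916306-121916555 on the minus strand, that of Cyp27a1 is chr1:74713285-74713534 on the plus strand, and that of Hsd3b7 is chr7:127800359-127800608 on the plus strand.
Cyp8b1: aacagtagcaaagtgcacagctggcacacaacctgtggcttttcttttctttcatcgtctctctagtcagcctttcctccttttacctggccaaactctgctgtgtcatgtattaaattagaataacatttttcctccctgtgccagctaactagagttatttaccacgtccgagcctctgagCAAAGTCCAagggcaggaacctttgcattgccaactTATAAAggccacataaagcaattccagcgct
Cyp27a1: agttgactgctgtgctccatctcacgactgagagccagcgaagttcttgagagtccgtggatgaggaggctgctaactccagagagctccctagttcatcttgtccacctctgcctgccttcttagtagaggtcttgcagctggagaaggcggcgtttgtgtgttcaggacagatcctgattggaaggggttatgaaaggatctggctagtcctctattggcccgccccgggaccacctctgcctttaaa
Hsd3b7: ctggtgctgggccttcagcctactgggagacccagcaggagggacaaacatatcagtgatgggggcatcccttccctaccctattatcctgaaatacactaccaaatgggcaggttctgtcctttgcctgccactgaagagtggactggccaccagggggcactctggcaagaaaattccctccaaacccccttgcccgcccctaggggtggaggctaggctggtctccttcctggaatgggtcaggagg

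The search covered letters of the HNF4 type (CAAAGTCCA, CAAAGGTCA, CAAAGTTCA or CAAAGGCCA, both strands), letters of the LRH-1 type (CAAGGTCA or CAAGGCCA, both strands) and TATAAA on the strand of the gene. The Cyp8b1 promoter held CAAAGTCCA from 67 to 59 bases before the start and TATAAA from 31 to 26 bases before it, with no overlap between them. The Cyp27a1 and Hsd3b7 windows held none of these letters. Among 32851 mouse promoters of the same length, 1.6% held an HNF4-type match, 3.28% an LRH-1-type match and 7.59% a TATAAA. A match describes letters and not a bound site.

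Cyp7a1, the gene of the rate-limiting step, varied more between animals than between tumour and adjacent liver. Its log2 signal was 10.50, 11.98 and 10.41 in the tumours of 1293, 1309 and 1316, against 10.81, 12.56 and 11.50 in their adjacent livers. Animal 1309 was highest in both tissues, and the groups overlap. The means were 10.97 ± 0.88 in tumours and 11.62 ± 0.88 in adjacent livers (SD, n = 3 each), a difference of −0.66 (SE 0.43, 95% confidence interval −1.60 to 0.29, limma adjusted p = 0.583). Each tumour nevertheless lay below its own adjacent liver, by −0.30, −0.57 and −1.09. With the animal as a block the SE was 0.16, the interval −1.0 to −0.31 and the limma adjusted p 0.0366. Over the 23 alternative settings the adjusted p ran from 0.0366 to 0.919, and the block was the single setting under the threshold.

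Cyp7a1 is known to follow the day and the feeding cycle, partly through the clock output factor Dbp. The Dbp signal was 7.64, 12.15 and 9.54 in tumours, against 7.73, 12.69 and 13.51 in adjacent livers, so it too was low in both tissues of animal 1293. The labels give no hour of dissection, and the part of Dbp or of the hour in the spread of Cyp7a1 was not tested.

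Among genes above background on all arrays, those whose log2 signal followed Cyp7a1 most closely over the 6 arrays were Pkdcc, a secreted kinase gene (Pearson r = 0.998), Egfr, the epidermal growth factor receptor gene (r = 0.993), and Tulp4 (r = 0.993), out of 7116 genes compared. With 6 arrays and that many genes such values describe likeness and nothing more. Egfr had 11.83, 12.63 and 11.90 in tumours, against 12.09, 12.91 and 12.47 in adjacent livers.

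Cyp8b1, the enzyme that sets the balance of cholic acid, read lower in every tumour. Its log2 signal was 13.50, 13.44 and 13.30 in tumours, against 14.14, 13.70 and 13.92 in adjacent livers. The groups do not overlap, and the tumours lay within 0.20 log2 units of each other. The means were 13.42 ± 0.10 in tumours and 13.92 ± 0.22 in adjacent livers (SD, n = 3 each). The difference was −0.51 (SE 0.14, interval −0.81 to −0.20), or 70.4% of the adjacent level, and missed the threshold (limma adjusted p = 0.0784, and 0.0581 with the block). The genes closest to it in pattern were Tars, which encodes a threonyl-tRNA synthetase (r = 0.998), Fam210b (r = 0.994) and Wwc1 (r = 0.994).

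Cyp27a1, which opens the alternative pathway, had the largest difference of the 10 members. The reported probe, ILMN_2960108, read 12.59, 13.11 and 11.06 in tumours, against 13.63, 13.66 and 13.89 in adjacent livers. The adjacent livers lay within 0.26 log2 units of each other, while the tumours spanned 2.05, with tumour 1316 lowest. The means were 12.25 ± 1.07 in tumours and 13.73 ± 0.14 in adjacent livers (SD, n = 3 each), a 2.77-fold lower level. The difference of −1.47 (SE 0.38, interval −2.29 to −0.65) fell short of the threshold in limma (adjusted p = 0.0572). With the block it passed (−1.47, interval −2.18 to −0.77, limma adjusted p = 0.0217).

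The size of the Cyp27a1 difference rested in part on tumour 1316, and its sign did not. Without tumour 1316 the difference was −0.87 with a limma adjusted p of 0.0204, and without tumour 1309 it was −1.90 with 0.00402. Without both arrays of animal 1309 it was −1.94 with a limma adjusted p of 0.0165. It missed the threshold without tumour 1293 (limma adjusted p = 0.124), without the adjacent liver of 1293 (0.110), 1309 (0.149) or 1316 (0.191), and without both arrays of animal 1293 (0.269) or 1316 (0.0891). The blocked call was lost without animal 1293 (limma adjusted p = 0.156) and passed without 1309 or 1316. Without 1316, though, every member probe had an SE of 0.17. That fit took little account of the spread of Cyp27a1 itself, so it cannot show that the call holds. In all, Cyp27a1 passed in 9 of 23 settings, with an adjusted p from 0.000278, in that same fit, to 0.416. Both other probes gave differences of like size, −1.32 for ILMN_2960114 (SE 0.37, limma adjusted p = 0.0828, and 0.0389 with the block) and −1.53 for ILMN_2620326 (SE 0.38, 0.0503, and 0.0193 with the block).

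Cyp7b1, the hydroxylase that acts on oxysterols in the alternative pathway, showed no detectable difference. Its log2 signal was 13.14, 13.64 and 13.38 in tumours, against 13.56, 13.76 and 13.32 in adjacent livers. The groups overlap, and animal 1316 went the other way from the remaining pair. The difference was −0.16 (SE 0.16, interval −0.51 to 0.19, limma adjusted p = 0.760).

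Hsd3b7, the dehydrogenase that both pathways use for the ring, read lower in tumours of animals 1293 and 1316 and about level in 1309. The reported probe, ILMN_1260456, gave 13.95, 14.09 and 13.87 in tumours, against 14.73, 14.15 and 14.51 in adjacent livers. The groups do not overlap, although tumour 1309 and its adjacent liver differed by −0.06. The difference was −0.50 (SE 0.16, interval −0.83 to −0.16, limma adjusted p = 0.128). It passed without both arrays of animal 1309 (−0.71, limma adjusted p = 0.0400), and its adjusted p over 23 settings ran from 0.0187 to 0.581. The second probe, ILMN_3114124, gave −0.52 (SE 0.17, limma adjusted p = 0.153).

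Akr1d1, the reductase of the ring double bond, was not measured usefully. Its probe was above background on 1 of 6 arrays, that of tumour 1309, with 6.34, 6.93 and 6.34 in tumours, against 6.55, 6.94 and 6.87 in adjacent livers. No fold is read from it (difference −0.25, SE 0.18, limma adjusted p = 0.616).

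Of the side-chain enzymes, Amacr, the racemase that prepares the side chain, was below background on all 6 arrays. Its values of 6.73, 6.67 and 6.70 in tumours, against 6.54, 6.58 and 6.65 in adjacent livers, hold no level (difference 0.11, SE 0.12, limma adjusted p = 0.782). Acox2, the peroxisomal oxidase of branched side chains, was bright and was the single member above background that did not read lower in tumours on average. It had 12.86, 12.69 and 12.98 in tumours, against 12.84, 12.39 and 12.43 in adjacent livers. The groups overlap through the adjacent liver of 1293. The difference was 0.29 (SE 0.15, interval −0.04 to 0.61, limma adjusted p = 0.433).

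Slc27a5, the ligase that activates bile acids for conjugation, was the one member with a probe that passed. ILMN_2847061 read 12.65, 13.16 and 12.47 in tumours, against 13.46, 13.52 and 13.79 in adjacent livers, and the groups do not overlap. Its difference was −0.83 (SE 0.18, interval −1.22 to −0.45, limma adjusted p = 0.0235), or 56.2% of the adjacent level, and the tumours read lower by −0.81, −0.36 and −1.32. It was the single called probe of the 14, where 1.15% of all probes were called lower. With the animal as a block 5 of the 14 probes were called lower (this one, the Cyp7a1 probe and all 3 Cyp27a1 probes), where 2.25% of all probes were.

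That call was not stable. It passed in 12 of 22 settings, with an adjusted p from 0.00152 to 0.257, and was lost without tumour 1293 (0.120), tumour 1316 (0.0827), adjacent liver 1309 (0.0682) or adjacent liver 1316 (0.110), all by limma. It was lost as well without both arrays of animal 1293 (limma adjusted p = 0.221) or 1316 (0.257). With the block it was lost without animal 1293 (limma adjusted p = 0.188). With every array kept, the call was lost with no background correction (limma adjusted p = 0.0538) and at a normexp offset of 16 (0.104). The authors' log2 values nearly repeat the setting with no background correction, and the call was lost there too (limma adjusted p = 0.0541). The call thus also depended on the background correction. The brighter probe, ILMN_1228815, which stands for the gene, read 13.37, 13.51 and 12.96 in tumours, against 13.79, 13.72 and 14.11 in adjacent livers, again without overlap. Its difference was −0.59 (SE 0.16, interval −0.95 to −0.23, limma adjusted p = 0.0803), and it passed without tumour 1309 (−0.71, limma adjusted p = 0.0371), within a range of 0.0247 to 0.575 over its settings.

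**Figure D2:**
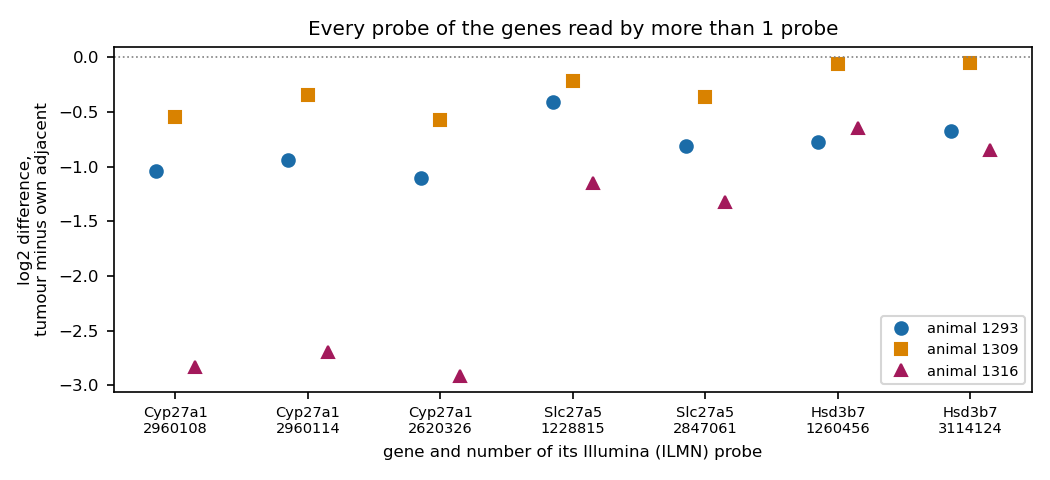
Log2 difference of each tumour from its own adjacent liver, for all probes of the 3 members with more than 1 probe (Cyp27a1, Slc27a5 and Hsd3b7), with a marker for each animal. All differences are below 0, animal 1309 lies nearest 0 for every probe, and the Cyp27a1 probes are lowest in animal 1316.

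Baat, which joins the activated bile acid to taurine or glycine, read lower in tumours by a smaller amount. Its log2 signal was 11.33, 11.43 and 11.15 in tumours, against 11.68, 11.56 and 11.77 in adjacent livers. The groups do not overlap. The difference was −0.37 (SE 0.13, interval −0.65 to −0.08, limma adjusted p = 0.184), and it passed under 0 of 23 settings.

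**Figure D3:**
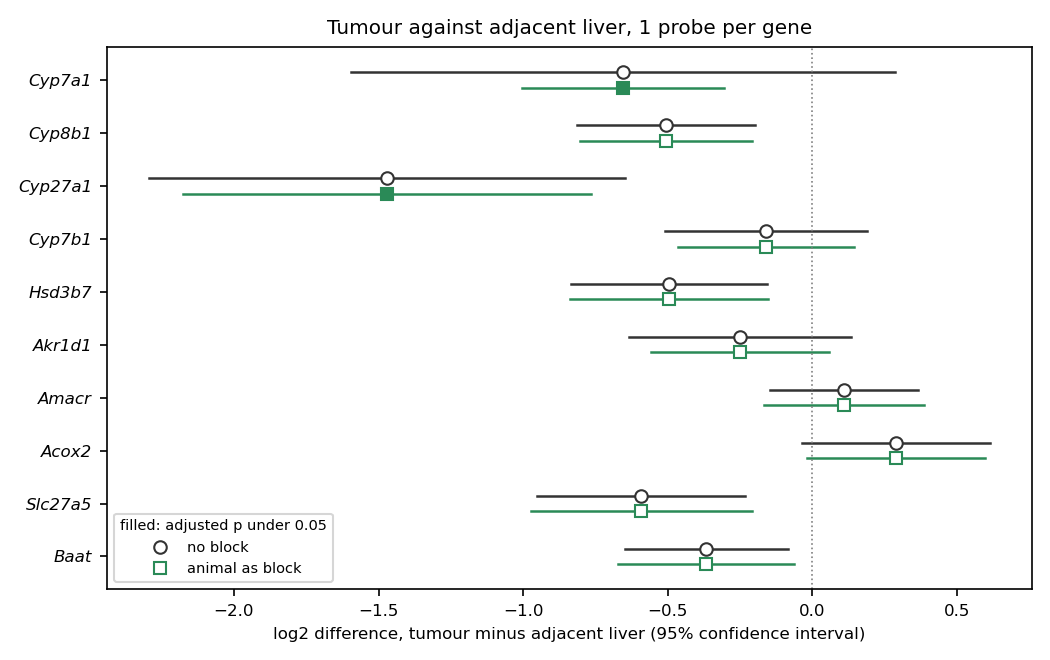
Log2 difference, tumour minus adjacent liver, of the 10 members with its 95% confidence interval, without a block (circles) and with the animal as a block (squares), filled where the adjusted p was under 0.05. Intervals of Cyp8b1, Cyp27a1, Hsd3b7, Slc27a5 and Baat lie below 0 in both fits, and the block narrows the interval of Cyp7a1 from −1.60 to 0.29 down to −1.0 to −0.31.

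Other steps of the pathway were read from a list of 13 genes chosen from general knowledge, of which 11 were measured. By limma 0 of 11 were called higher and 0 lower. At an unadjusted p under 0.05, 1 was higher and 3 were lower, where 9.27% of all genes were lower. The median difference of the 11 was −0.14. Cyp2c70, which makes the muricholic acids of mice, had 13.97, 14.49 and 12.64 in tumours, against 14.85, 14.66 and 14.32 in adjacent livers. Its difference of −0.91 (SE 0.35, limma adjusted p = 0.236) passed with the block (0.0401) and ranged from 0.000756 to 0.613 over the settings. Cyp46a1, Star and Fdx1 were below background on all arrays.

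Of 13 measured regulators from a list of 15, 1 was called higher and 0 lower in limma, with a median of −0.27. At an unadjusted p under 0.05, 4 were lower, where 9.27% of all genes were. The one that rose was Ppargc1a, a transcriptional coactivator of fasting metabolism, with 10.18, 9.84 and 10.48 in tumours, against 8.13, 8.31 and 7.81 in adjacent livers. It was 4.23-fold higher (difference 2.08, SE 0.18, limma adjusted p = 3.56e-05), and it passed in all 23 settings, with a difference of 0.99 where its probes were averaged. A second Ppargc1a probe was below background on every array and gave −0.10.

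The nuclear receptors around Cyp7a1 did not pass. Nr1h4, which encodes FXR, had 11.89, 12.04 and 11.80 in tumours, against 12.15, 12.47 and 12.99 in adjacent livers (difference −0.63, SE 0.19, limma adjusted p = 0.103). Hnf4a differed by −0.24 (SE 0.13, limma adjusted p = 0.437) and Nr5a2 by −0.27 (SE 0.14, limma adjusted p = 0.450). The probe of Nr0b2, the target through which FXR represses synthesis, was below background on all 6 arrays, so its level is not known here.

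Of the 12 bile acid and bile lipid transporters, 1 was called higher and 5 lower by limma, where 3.64% and 1.56% of all genes were, with a median difference of −0.60. All 5 calls of lower were lost with no background correction, with a normexp offset of 16 and in the authors' log2 values. Abcc4, a basolateral exporter, rose, with 9.55, 9.43 and 9.96 in tumours, against 7.43, 6.90 and 7.05 in adjacent livers (difference 2.52, SE 0.18, limma adjusted p = 6.6e-06), and it passed in all 23 settings. The size of that rise is uncertain, since the adjacent liver of 1309 was below background, and it was 2.08 without background correction and 2.87 at an offset of 16. Abcb11, the canalicular bile salt export pump, fell, with 10.90, 11.27 and 9.54 in tumours, against 12.15, 11.84 and 12.16 in adjacent livers (difference −1.48, SE 0.33, limma adjusted p = 0.0304). Slc10a1, the sodium-dependent uptake carrier, was called lower (limma adjusted p = 0.0219) from a dim probe that read 6.94, 7.20 and 6.40 in tumours, against 7.48, 7.93 and 8.09 in adjacent livers. Tumour 1316 was below background there, and the fitted difference of −0.99 (SE 0.21) was −0.70 without background correction and −1.28 at an offset of 16, so its size is not fixed by these arrays.

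The remaining transporters called lower were Abcb4, the phospholipid floppase of the canaliculus (difference −0.99, SE 0.21), Abcc3, a basolateral exporter (−0.72, SE 0.16), and the organic anion carrier Slco1a4 (−0.83, SE 0.18), with limma adjusted p-values of 0.0219, 0.0301 and 0.0266. A second Slco1a4 probe gave −0.08 and did not reach background on any array. Slco1b2, a related carrier, had a larger difference, −1.59 (SE 0.48), that missed the threshold without the block and passed with it (limma adjusted p = 0.108 and 0.0363). The count of 5 also depended on single arrays. It was 0 without tumour 1293, 6 without tumour 1309, 2 without tumour 1316, 3 without adjacent liver 1293, 1 without adjacent liver 1309 and 0 without adjacent liver 1316, and it was 0 without both arrays of animal 1293 and 1 without both of animal 1316.

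**Figure D4:**
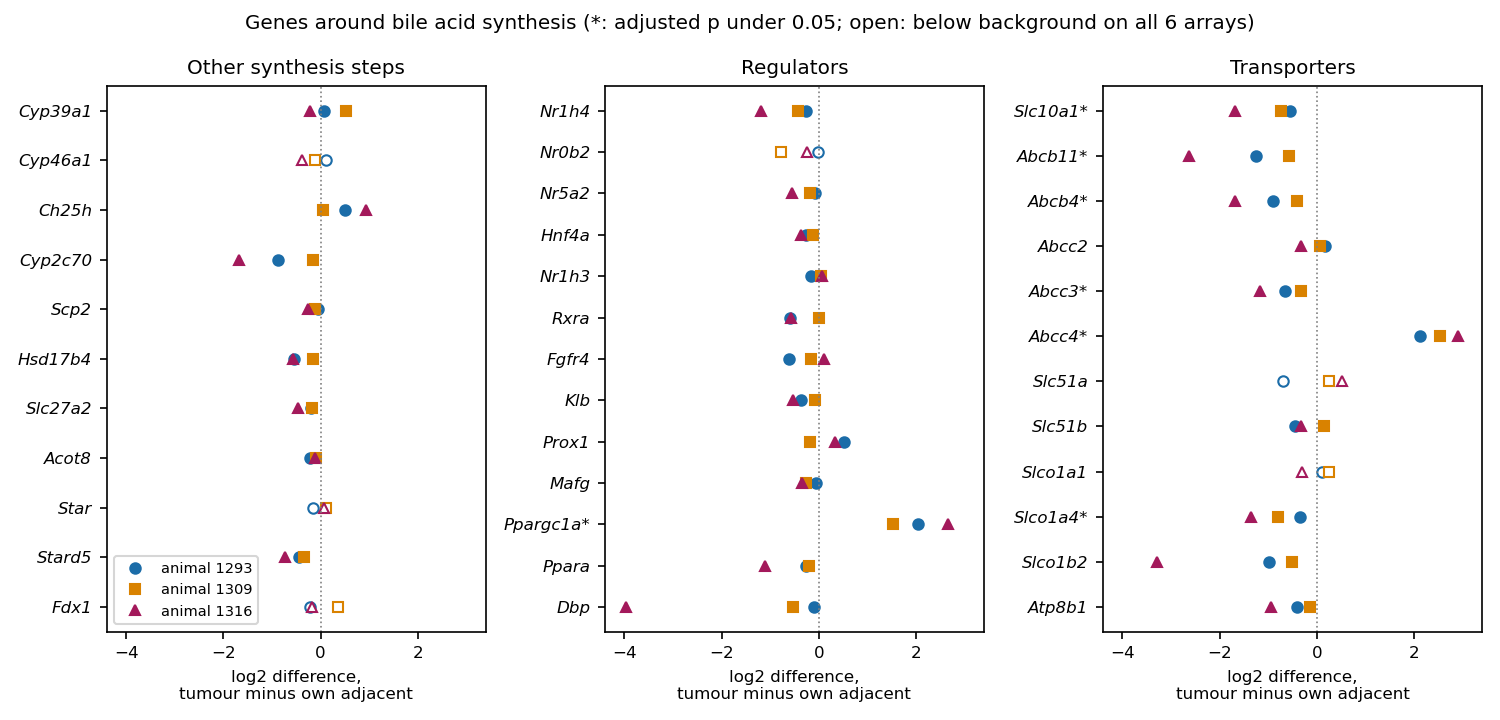
Log2 difference of each tumour from its own adjacent liver for the measured genes of 3 lists (other synthesis steps, regulators, transporters), 1 marker per animal, with open markers for genes below background on all 6 arrays and an asterisk where the adjusted p was under 0.05. Ppargc1a and Abcc4 lie to the right of 0 in all 3 animals, and the 5 transporters called lower lie to the left of 0 in all 3.

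Median raw signal and background level did not separate the groups, but the share of probes above background and some cell type markers did move with them. Array medians of the raw signal were 138.4 to 160.5, the background level was 168.5 to 191.7, and 30.5% to 31.7% of probes were above it in tumours, against 29.2% to 30.3% in adjacent livers. Hepatocyte markers were bright, with 7 of 9 above background on all arrays. Their summed signal was 217171 to 251492 in tumours and 234250 to 250883 in adjacent livers, and the Fgb probe was below background. Most of that sum came from Trf, Ttr, Apoa1 and Ahsg, so it says little of the other markers and does not measure hepatocyte content. Of these 9, limma called Cps1 higher (difference 0.59, adjusted p = 0.0436) and Alb lower (−0.84, adjusted p = 0.00835), with the Alb probe near background. Of all genes 3.64% were called higher and 1.56% lower.

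Of 9 pericentral hepatocyte markers 1 was called higher (Oat) and 0 lower by limma. At an unadjusted p under 0.05, 6 were lower, where 9.27% of all genes and 18% of those above background on all arrays were. With the block 3 were called lower (Glul, Cyp1a2 and Tbx3), where 3.11% and 6.96% were. The median difference of the 9 markers was −0.76, and none was below background on all arrays. Their sums were 70915, 89288 and 46114 in tumours, against 85038, 83261 and 81455 in adjacent livers. Cyp1a2, a pericentral gene, had 12.07, 12.92 and 8.62 in tumours, against 13.47, 13.46 and 13.29 in adjacent livers. Its difference was −2.20 (SE 0.77, limma adjusted p = 0.178, and 0.0424 with the block). Tumour 1316 was lowest and tumour 1309 nearest to adjacent liver, the order seen for Cyp27a1. The same order was seen outside this list, in Abcb11 and in the macrophage marker Clec4f. Of the 9 markers 6 were lower in all 3 animals, where 21.6% of all genes were, and Oat and Rhbg were higher in all 3.

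Of 8 macrophage markers measured 0 were called in limma. At an unadjusted p under 0.05, 3 were lower, where 9.27% of all genes were, and 0 of the 8 were lower in all 3 animals. Sums of the 8 were 4196, 4950 and 2179 in tumours of 1293, 1309 and 1316. In the adjacent livers they were 6968, 4147 and 6030, so animal 1309 went the other way. Of 8 stellate cell and fibroblast markers 2 were called lower by limma (Dcn and Reln) and 0 higher, where 1.56% and 3.64% of all genes were. Sums of the 8 were 4610 to 7854 in tumours and 8810 to 10903 in adjacent livers. Most of that signal came from Dcn and Reln themselves, and the median difference of the 8 was −0.11. At an unadjusted p under 0.05, 3 were lower, where 9.27% of all genes were, and 3 higher (Acta2, Col3a1 and Col1a1). The share of all genes higher at that p was not counted. Acta2 passed as higher with the block (difference 1.17, limma adjusted p = 0.146, and 0.0163 with the block). Of 8 endothelial markers 0 were called in limma, with a median difference of −0.04. At an unadjusted p under 0.05, 1 was higher (Lyve1) and 2 were lower (Stab2 and Clec4g), where 9.27% of all genes were lower. Lyve1 passed as higher with the block (0.59, limma adjusted p = 0.275, and 0.0217 with the block). The cholangiocyte markers Krt19, Krt7, Epcam and Cftr were below background on all arrays, 4 of 5 measured, and so were Ptprc and Ms4a1 among 7 measured lymphocyte and neutrophil markers. The part of cell composition, of liver zone or of the share of probes above background in the readings of the bile acid genes was not tested.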

How the data were processed

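RNA of 3 tumours and 3 adjacent livers was read on Illumina bead arrays. Per the submitters' processing notes the tool was GenomeStudio, and its version is not given in the sources used here. The deposited table of intensity values holds a linear signal per probe for 45281 probes and was neither background-subtracted nor normalized between arrays, as its values show. The authors' log2 table ranks probes as the intensity table does and equals its quantile-normalized log2 within 0.00504. It served as an alternative, which nearly repeats the setting with no background correction. With 3 arrays per group, the number of arrays limits how closely a difference can be estimated.

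Intensities were corrected with normexp (offset 50), quantile-normalized and log2-transformed (limma 3.58.1, R 4.3.3). Symbols came from the platform annotation (34885 probes with a single symbol, 18 with several, 10378 not listed). A gene was read from its probe with the highest mean signal. Tumours were compared with adjacent livers by lmFit and eBayes without a block, adjusted over all probes at a threshold of 0.05; the fit was run first on simulated data. By title, each tumour shares its animal with its adjacent liver. Within these pairs, deviations from group means correlated at 0.41, 0.25 and 0.09 for animals 1293, 1309 and 1316 over 14026 probes, against −0.27 to 0.03 between animals, so the fit with the animal as a block is given where it changes a call; its random form used statmod 1.5.0. Confidence intervals are at 95% and not adjusted for many probes.

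The members and lists were chosen with earlier results of these data known. All members are named; of the lists, those that passed, with Nr1h4, Nr0b2, Nr5a2, Hnf4a, Slc10a1, Abcb11 and Cyp2c70. Slco1b2, Dbp and the cell type markers were named after their values were seen. Some listed genes were not analysed here.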

Additional observations from a re-analysis of the deposited data

How the results depend on the processing

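All 10 members kept the sign of their difference under every setting that could be run. The 0 members called lower became 1 with arrays scaled to their medians, 1 with a variance trend and 1 with a random replicate block, and 2 with the animal as a replicate block; it was 0 to 4 when an array or an animal was left out. The block was added to the runs without an animal after the data were seen. Other synthesis steps called lower went to 1 with the replicate block and were 0 to 2 with arrays left out, where those called higher were 0 to 1; regulators called lower were 0 to 1. Transporters called lower numbered 0 with no background correction, with an offset of 16, in the authors' log2 values and with probes averaged, 2 with median scaling and 0 to 7 with arrays left out. Over all genes 694 were higher and 298 lower. Lower calls fell to 128 with no background correction, 58 at offset 16, 126 in the authors' values, 130 with median scaling, 175 after a filter on dim probes and 93 with probes averaged, rose to 592 with the replicate block, and were 7 to 811 with arrays left out. Higher calls were 448 at offset 16, 444 with probes averaged and 213 to 960 with arrays left out. Of all calls 70.0% were higher, against 85.3% with median scaling, 80.5% without background correction and 88.5% at offset 16. Among the members and the 3 further lists the replicate block changed the calls of Cyp7a1, Cyp27a1, Cyp2c70 and Slco1b2 and of no other gene. A block on the slide and normalization with negative controls were not run, since the table used here names no slides, control probes or detection values. Signals near background, as for Akr1d1, Amacr and Nr0b2, allow no comparison. The causes of these shifts were not tested.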
